A study of Mus musculus with 16 samples.

Results

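The GABA-A receptor subunits *Gabra2*, *Gabra3*, *Gabra5*, *Gabrb1*, *Gabrb2*, *Gabrg1* and *Gabrd* were followed in sorted sensory neurons of 4 kinds of ganglion. These 7 genes were taken by symbol from count tables of 22609 genes and all 7 had a row in every library. The α subunit transcripts *Gabra2* and *Gabra3* were the main ones in both sets of DRG and were close to the detection floor in NG/JG. The β subunit transcripts *Gabrb1* and *Gabrb2* were present in every L3-L5 DRG library and nearly absent from T10-L1 DRG. Of these patterns, the difference of *Gabra2* among the 4 ganglia was the only one past an adjusted p of 0.05 in the main test, edgeR's quasi-likelihood test, and it was lost when any of 14 of the 16 libraries was left out. That call was also lost with the replicate number as a block in the model.

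The libraries came from naïve male C57BL/6J mice aged 8 to 12 weeks. The mice carried a Cre recombinase driven by *Pirt*, a gene of sensory neurons, together with a Cre-dependent TdTomato reporter at the Rosa26 locus, and all 4 groups shared this Pirt/TdTomato genotype and no treatment. The groups were the trigeminal ganglion (TG), the nodose and jugular ganglia (NG/JG, with nodose ganglion as the tissue label), the lumbar dorsal root ganglia at L3-L5 (L3-L5 DRG) and the dorsal root ganglia at T10-L1 (T10-L1 DRG), with 4 libraries each and 16 in all. Brightly fluorescent cells were sorted in 2 rounds, so neurons that express the reporter weakly were left out. How many animals went into a library is not given in the sources used here, so the p-values measure the spread between libraries, which may in part be technical.

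GABA-A receptors are chloride channels that open when they bind GABA. They are built from several subunits, usually a pair of α, a pair of β and a γ or δ subunit, and the subunits present set the drug sensitivity and the location of the receptor. The α and β subunits form the GABA binding sites, and a γ subunit together with certain α subunits forms the benzodiazepine site. Primary sensory neurons carry these receptors on their cell bodies and on their central terminals, where GABA from the spinal cord and brainstem acts on transmitter release.

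The files held raw read counts. A level is given below as CPM, in which a count is divided by its library's total on genes, or as RPKM, the CPM per kilobase of exon, which is the scale used where genes are compared with each other. Reads on genes ranged from 4735624 to 13333318 per library, so a floor of 3 counts corresponded to 0.225 to 0.633 CPM. This floor covers counting error only, because molecular identifiers were not used. Between 29.6% and 66.6% of uniquely aligned reads lay outside genes, with the highest share in L3-L5 DRG library 4. That library also had reads on the most genes, 18571, against 10132 in NG/JG library 4, the lowest. Markers of the labelled cell type were present, since all 9 sensory neuron markers of a list fixed for this purpose exceeded 3 reads in every library but TG library 1, where 8 did. *Pirt* itself lay between 16.8 and 308 CPM. Markers of the cells around neurons were higher: 7 satellite glia markers summed to 13159 to 64533 CPM and 6 Schwann cell markers to 8011 to 53596 CPM, while the neuronal markers summed to 919 to 10368 CPM. In such bulk samples, fewer cells of a type and less RNA per cell cannot be told apart.

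**Figure D1:**
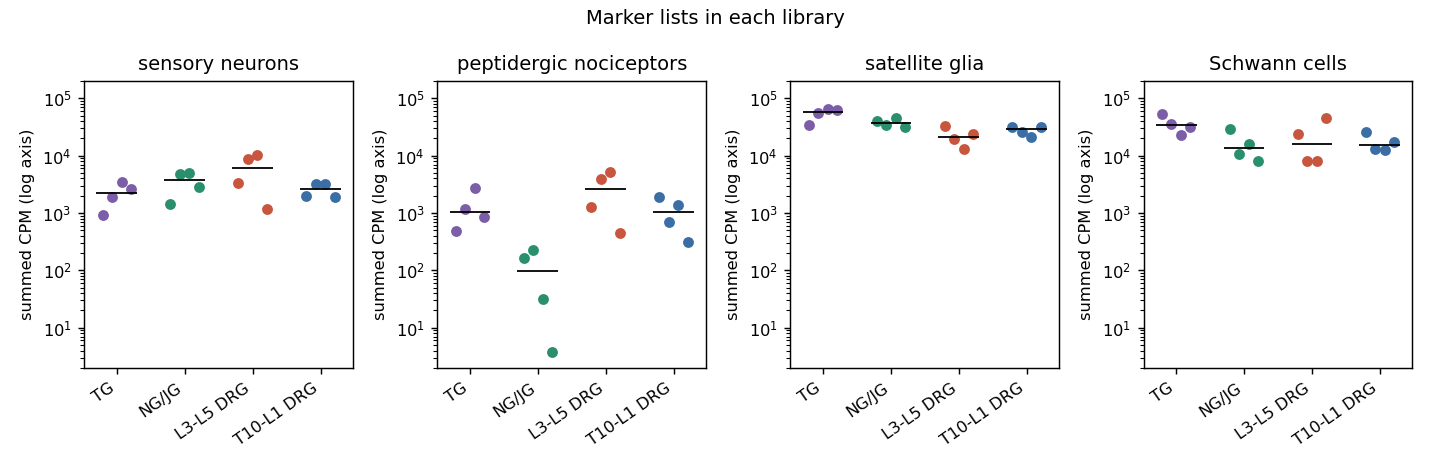
Summed CPM of 4 marker lists in each of the 16 libraries, on a log axis, by ganglion (points are libraries 1 to 4 from left to right, lines are medians). The peptidergic nociceptor sum was 3.72 to 224 CPM in NG/JG, below all 12 other libraries, and satellite glia markers exceeded neuronal markers in every library.

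Per kilobase, *Gabra2* was the most abundant of the 7 transcripts in L3-L5 DRG (23.3 ± 30.5 RPKM, mean ± SD, n = 4), in DRG of T10-L1 (8.80 ± 5.91 RPKM) and in TG (2.52 ± 1.84 RPKM). *Gabra3* followed in both DRG sets, with 3.81 ± 3.50 RPKM at L3-L5 and 3.54 ± 1.54 RPKM at T10-L1. In NG/JG the highest mean was that of *Gabrg1*, 5.43 ± 9.76 RPKM, and it had an SD larger than the mean. All 7 transcripts together averaged 31.3 ± 27.0 RPKM (SD, n = 4) at L3-L5, 12.8 ± 5.74 at T10-L1, 9.03 ± 7.72 in NG/JG and 5.14 ± 3.63 in TG. Without L3-L5 DRG library 3 the first was 17.8 RPKM, and without NG/JG library 4 the NG/JG mean was 5.36 RPKM. The number of subunits with more than 3 reads was 4 to 6 per library at L3-L5, 2 to 5 at T10-L1, 1 to 5 in TG and 1 to 3 in NG/JG. Genes of any kind with reads numbered 13617 to 18571, 14237 to 16694, 11527 to 15354 and 10132 to 13029 per library, in the same order. Fewer genes of any kind were thus detected in NG/JG as well, so the count is not particular to these subunits. The leading transcript was *Gabra2* in 3 of 4 libraries of each DRG set and *Gabra3* in the fourth. The NG/JG libraries differed from each other in this respect: *Gabrb1* made up 63.5% of the subunit RPKM in library 1, *Gabrg1* 80.9% in library 2, *Gabra5* 86.3% in library 3 and *Gabrg1* 99.8% in library 4. TG library 1 had only *Gabra3* above 3 reads, and its 7 subunits summed to 0.630 RPKM, the lowest of all libraries.

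**Figure D2:**
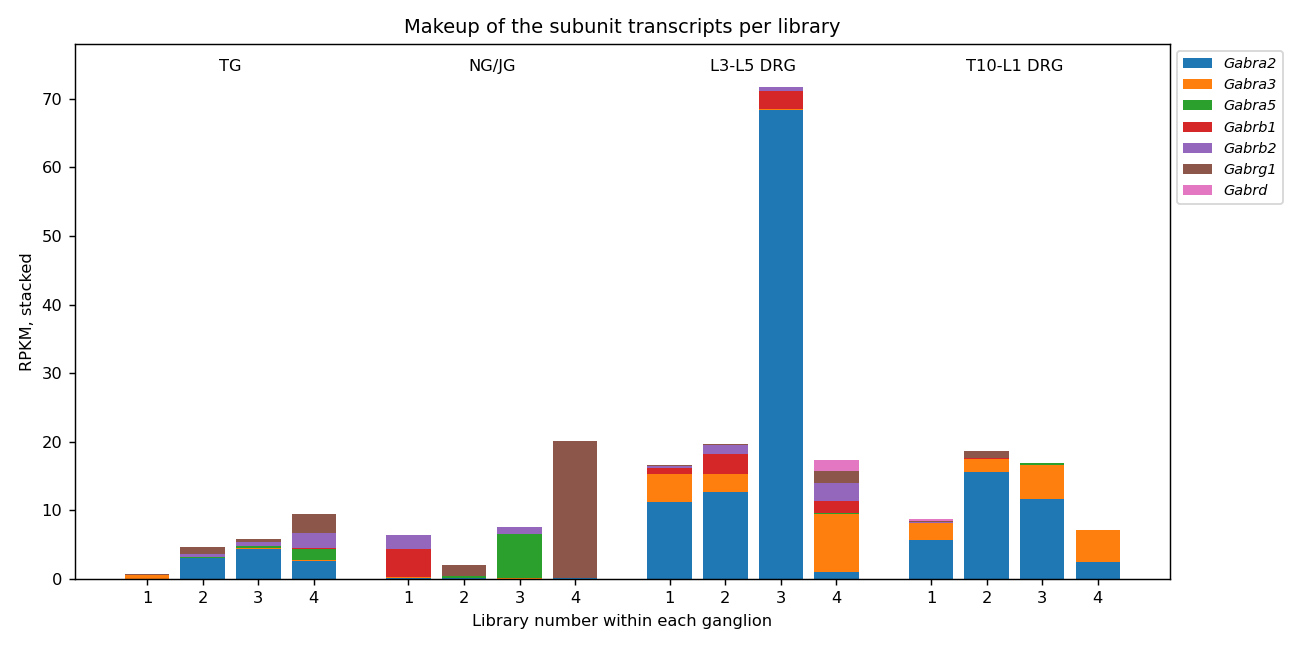
RPKM of the 7 subunit transcripts, stacked for each of the 16 libraries and grouped by ganglion. *Gabra2* fills most of the bar in 6 of the 8 DRG libraries, L3-L5 DRG library 3 reaches 71.7 RPKM through *Gabra2*, and each NG/JG library is led by a subunit other than *Gabra2*.

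*Gabra2* encodes the α2 subunit. It lies on the reverse strand of chromosome 5 (mm9, chr5:71352296-71487088), with 10 annotated exons that total 2392 bp and overlap no other gene. Its 4 L3-L5 DRG libraries had 26.7, 30.4, 164 and 2.53 CPM, from 275, 306, 1986 and 12 reads. The T10-L1 DRG libraries had 13.5, 37.1, 27.9 and 5.70 CPM, a range that overlapped that of L3-L5. In TG, library 1 had no read, which allows up to 0.381 CPM, and libraries 2 to 4 had 7.28, 10.5 and 6.32 CPM. The NG/JG libraries had 3, 1, 0 and 1 reads, all at or under the floor. No NG/JG library reached the lowest DRG library, whereas the TG range overlapped those of all other ganglia. The share of all genes that separate ganglia in this way was not counted, for this subunit or for those below. The order of the means was thus L3-L5 DRG (55.8 CPM), T10-L1 DRG (21.1), TG (6.02) and NG/JG (0.159), and without L3-L5 DRG library 3 the first mean was 19.9 CPM, below that of T10-L1 DRG.

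*Gabra2* differed among the 4 ganglia in the quasi-likelihood F-test of edgeR on all 16 libraries, with an adjusted p of 0.0498. It was the only one of the 5 subunits tested that passed, beside 3.01% of all 14236 genes tested. Its adjusted p ranged from 0.0099 to 0.155 when 1 library was left out, and stayed under 0.05 only without TG library 1 or without L3-L5 DRG library 4, when 6.98% and 2.94% of all genes were called. With the replicate number as a block in the same quasi-likelihood test, the adjusted p of *Gabra2* was 0.164. In the pairwise tests the log2 fold change was -8.25 ± 1.76 (SE) for NG/JG over L3-L5 DRG (adjusted p = 0.168) and -6.85 ± 1.61 for NG/JG over T10-L1 DRG (adjusted p = 0.117). TG over L3-L5 DRG gave -2.82 ± 1.38 (adjusted p = 0.313), TG over T10-L1 DRG -1.36 ± 1.19 (0.566), and L3-L5 over T10-L1 DRG 1.43 ± 1.01 (0.822). None of these 5 differences passed, and the last turned to -0.10 without L3-L5 DRG library 3. The SE of edgeR's fits, here and below, was derived from the test and not estimated separately. It is the size of the log2 fold change divided by the square root of the F statistic.

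*Gabra3* encodes the α3 subunit and lies on the reverse strand of chromosome X (mm9, chrX:69678020-69902187), with 11 exons and 3924 bp of exon sequence. The T10-L1 DRG libraries were the most even, with 9.63, 7.80, 19.3 and 18.8 CPM. The L3-L5 DRG libraries had 16.05, 10.2, 0.412 and 33.2 CPM, so that library 3, the one with the most *Gabra2*, had the least *Gabra3*, 5 reads. In TG, library 1 had 17 reads (2.16 CPM) and libraries 2 to 4 had 1, 2 and 1 reads. NG/JG had 2, 0, 2 and 0 reads. All TG and NG/JG libraries were thus below every T10-L1 DRG library, and NG/JG was also below every L3-L5 DRG library, while TG library 1 exceeded L3-L5 DRG library 3.

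The means of *Gabra3* in L3-L5 and T10-L1 DRG were 15.0 ± 13.7 and 13.9 ± 6.03 CPM (SD, n = 4), and their log2 difference was 0.01 ± 0.95 (SE, adjusted p = 0.998), so the order of these neighbours is not resolved. TG averaged 0.718 CPM and NG/JG 0.139 CPM. The log2 fold change was -3.98 ± 1.10 for TG over T10-L1 DRG (adjusted p = 0.0608), -4.04 ± 1.44 for TG over L3-L5 DRG (0.166) and -6.54 ± 1.70 for NG/JG over T10-L1 DRG (0.166). Both of the TG values depended on TG library 1. Of all libraries it had the lowest neuronal marker sum (919 CPM) and the highest Schwann cell sum (53596 CPM). The part of this in the values was not tested. Without that library *Gabra3* passed over T10-L1 DRG (-5.40, adjusted p = 0.00246), over L3-L5 DRG (-5.41, adjusted p = 0.0430) and among the 4 ganglia (adjusted p = 0.0221, against 0.0633 with it). Calls over all genes rose as well at that setting, to 26.7%, 15.2% and 6.98% in these 3 tests, so the gain is not particular to *Gabra3*. *Gabra3* was not tested for NG/JG over L3-L5 DRG in the main test, because the filter on low counts removed it from that pair. It gave -6.52 ± 1.72 with all 16 libraries in one fit (adjusted p = 0.0837) and -6.50 ± 2.28 without the filter (0.503), and it did not pass in any fit with 1 library left out that kept it.

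Between NG/JG and the DRG, markers of peptidergic nociceptors differed in the same direction as both α transcripts. The 2 peptidergic markers *Calca* and *Tac1*, which encode neuropeptides, were both detected in each ganglion, and their sum was 3.72 to 224 CPM in NG/JG, 491 to 2774 in TG, 312 to 1902 at T10-L1 and 444 to 5268 at L3-L5. L3-L5 DRG library 3, with the highest *Gabra2* of all, also had the highest sum of these markers and of the neuronal markers (10368 CPM), and library 4, with the lowest *Gabra2* of that group, had the lowest of both within L3-L5 DRG. *Gabra3* ran the other way in these libraries, lowest in library 3 and highest in library 4. In TG the peptidergic sum overlapped those of both DRG sets, and so did *Gabra2*. *Gabra3* averaged 0.718 CPM in TG, against 13.9 at T10-L1 and 15.0 at L3-L5. The sums of the 3 genes listed for non-peptidergic nociceptors, whose specificity was not tested, overlapped. They were 22.5 to 554 CPM in NG/JG, 123 to 1033 at T10-L1 and 98.4 to 2677 at L3-L5. The genes differed within this sum. *Mrgprd* did not overlap, with 0.207 to 1.93 CPM in NG/JG, 23.7 to 309 at T10-L1 and 25.3 to 808 at L3-L5. *P2rx3* and *Scn10a* overlapped between NG/JG and both DRG sets. The 7 satellite glia markers summed to 31634 to 45787 CPM in NG/JG, against 21528 to 31654 at T10-L1 and 13159 to 32813 at L3-L5. The part of these cells in the α subunit differences was not tested.

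The start regions of the 2 α genes, which were both low in NG/JG, differed in base composition. Shown are 300 bases from 250 before to 50 after the RefSeq transcript start on GRCm38.p6, both on the reverse strand, with matches to the GC box (GGGCGG, or CCGCCC on the other strand) and the TATA box (TATAAA, or TTTATA on the other strand) in capitals. The first is chr5:71095800-71096099 and the second chrX:72656758-72657057, 1 of 2 overlapping windows listed for *Gabra3*.
Gabra2: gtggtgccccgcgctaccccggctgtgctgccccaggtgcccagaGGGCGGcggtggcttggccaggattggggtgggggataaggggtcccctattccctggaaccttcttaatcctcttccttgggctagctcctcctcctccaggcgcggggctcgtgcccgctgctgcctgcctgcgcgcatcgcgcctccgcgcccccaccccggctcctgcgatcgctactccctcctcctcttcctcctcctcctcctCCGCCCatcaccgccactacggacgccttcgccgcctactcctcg
Gabra3: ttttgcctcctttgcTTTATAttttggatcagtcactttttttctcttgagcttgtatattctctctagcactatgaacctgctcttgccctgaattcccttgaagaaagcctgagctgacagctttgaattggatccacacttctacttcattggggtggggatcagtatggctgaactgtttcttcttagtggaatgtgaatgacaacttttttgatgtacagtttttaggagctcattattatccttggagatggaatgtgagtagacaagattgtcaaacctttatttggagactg
The *Gabra2* window had 70% G and C, at percentile 90.4 of 32851 such windows, and 2 GC boxes, which begin 205 bases before and 6 bases into the transcript. The *Gabra3* window had 39.3% G and C (percentile 8.92), no CpG, and 1 TATA box match on the other strand, 235 bases before the start. A GC box stood in 35.7% of all windows and a TATA box in 13.6%, on either strand.

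**Figure D3:**
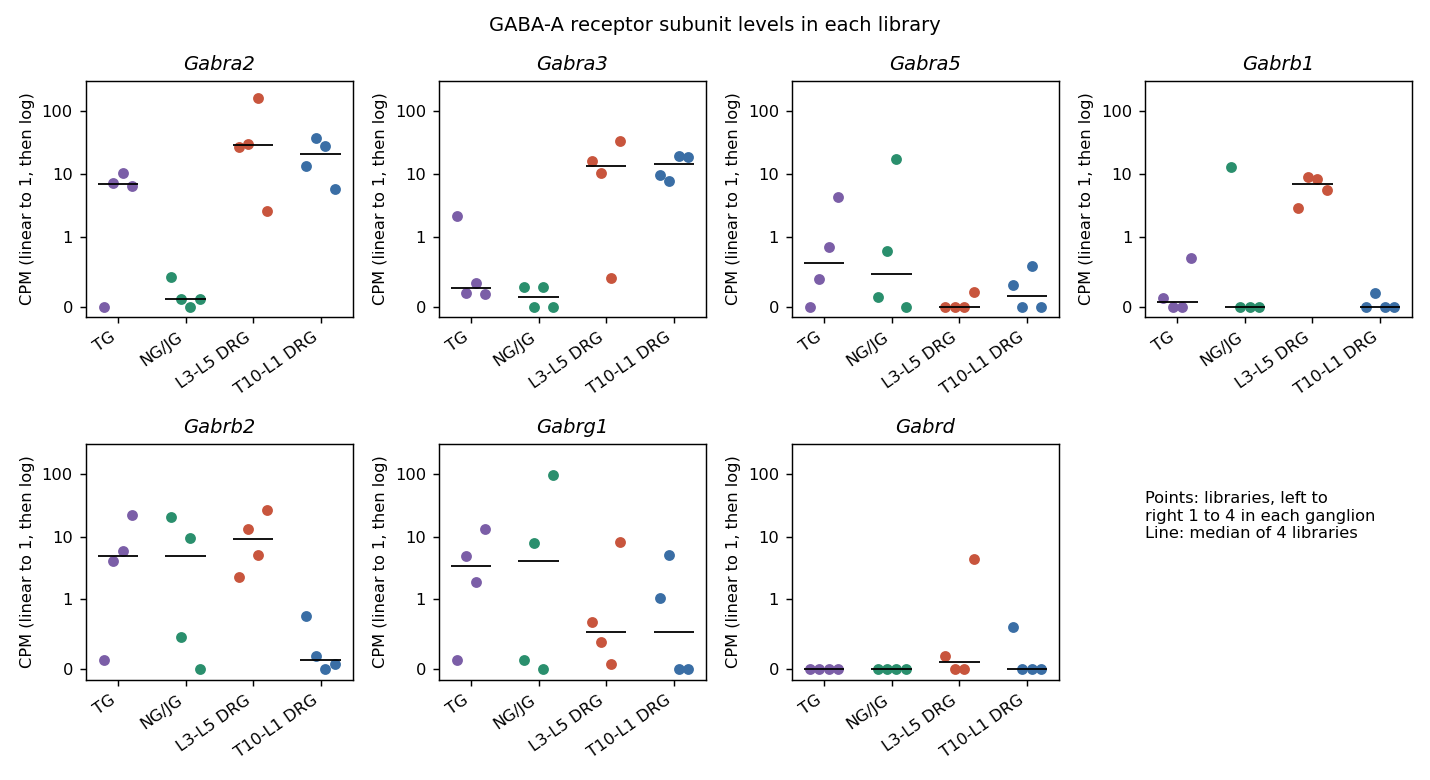
CPM of each subunit in each of the 16 libraries by ganglion (points are libraries 1 to 4 from left to right, lines are medians, and the axis is linear to 1 CPM and logarithmic above). *Gabra2* and *Gabra3* sit high in both DRG sets and at the bottom in NG/JG, *Gabrb1* and *Gabrb2* are higher in all 4 L3-L5 DRG libraries than in any T10-L1 DRG library, and *Gabrd* is at 0 in 13 of 16 libraries. The share of all genes that separate ganglia in this way was not counted.

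*Gabrb1* encodes the β1 subunit and lies on the forward strand of chromosome 5 (mm9, chr5:72091171-72529628, 9 exons, 3089 bp of exon sequence). Its L3-L5 DRG libraries had 2.82, 8.93, 8.16 and 5.49 CPM, from 29, 90, 99 and 26 reads, with a mean of 6.35 ± 2.78 CPM (SD, n = 4). In T10-L1 DRG there were 2 reads in library 2 and none in the other 3 libraries. TG had 1, 0, 0 and 4 reads. In NG/JG, library 1 had 91 reads (12.7 CPM) and the other 3 libraries had none. Every L3-L5 DRG library exceeded every T10-L1 DRG and every TG library, while NG/JG library 1 exceeded all of them.

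Over the pooled reads, the L3-L5 level of *Gabrb1* exceeded the T10-L1 level by 139-fold, with a 95% counting interval of 38.2 to 1158 (exact binomial). Reads were pooled since the lower group had 2 in all, and the interval takes no account of the spread between libraries. The fitted log2 fold change was 6.73 ± 1.47 (SE), with an unadjusted p of 0.00112 in the edgeR fit, and the adjusted p of 0.785 did not pass. TG over L3-L5 DRG gave -4.51 ± 1.53 (adjusted p = 0.152). NG/JG over L3-L5 DRG gave -0.91 ± 2.06 (adjusted p = 0.999), and -8.77 without NG/JG library 1. NG/JG and T10-L1 DRG could not be ranked, because the NG/JG mean of 3.17 CPM came from 1 library.

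*Gabrb2* encodes the β2 subunit and lies on the forward strand of chromosome 11 (mm9, chr11:42233259-42446092, 11 exons, 9922 bp of exon sequence). The L3-L5 DRG libraries had 2.24, 13.2, 5.03 and 26.4 CPM. T10-L1 DRG had 5, 2, 0 and 1 reads, at most 0.764 CPM, which is below every L3-L5 DRG library. TG had 0.127, 4.13, 5.84 and 21.8 CPM, and NG/JG had 20.2, 0.455, 9.54 and 0 CPM. The means were 11.7 ± 10.8 CPM (SD, n = 4) at L3-L5, 7.97 ± 9.51 in TG, 7.54 ± 9.498 in NG/JG and 0.257 ± 0.347 in T10-L1 DRG. The first 3 overlapped widely. T10-L1 DRG had the lowest mean, and its range also overlapped those of TG and NG/JG.

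For *Gabrb2*, L3-L5 over T10-L1 gave a log2 fold change of 5.51 ± 1.44 (SE), with an unadjusted quasi-likelihood p of 0.00358 in edgeR and an adjusted p of 0.785. TG over L3-L5 DRG gave -0.13 ± 1.28 (adjusted p = 0.973), NG/JG over L3-L5 DRG -0.53 ± 1.74 (0.999) and TG over NG/JG 0.33 ± 1.94 (0.990), and the sign of each of these 3 changed when single libraries were left out. The filter on low counts removed *Gabrb2* from TG over T10-L1 DRG. In alternatives that kept it, it was at 5.14 ± 1.77 without the filter (adjusted p = 0.149), at 5.36 ± 2.01 with all 16 libraries in one fit (0.240) and at 5.84 ± 1.33 without TG library 1 (0.0102), and the last is the setting in which 26.7% of all genes were called. It did not pass with any T10-L1 DRG library left out. Neuronal markers summed to 1176 to 10368 CPM at L3-L5 and 1892 to 3237 CPM at T10-L1. L3-L5 DRG library 4 had the lowest neuronal sum of the 8 DRG libraries and the highest share of reads outside genes. The part of neuronal content and of these reads in the β differences was not tested.

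The β genes, which were both at or near the floor in T10-L1 DRG, are shown in the same way, at chr5:71657671-71657970 and chr11:42420190-42420489 of GRCm38.p6, both on the forward strand. RefSeq lists another window for *Gabrb1* and 2 others for *Gabrb2*.
Gabrb1: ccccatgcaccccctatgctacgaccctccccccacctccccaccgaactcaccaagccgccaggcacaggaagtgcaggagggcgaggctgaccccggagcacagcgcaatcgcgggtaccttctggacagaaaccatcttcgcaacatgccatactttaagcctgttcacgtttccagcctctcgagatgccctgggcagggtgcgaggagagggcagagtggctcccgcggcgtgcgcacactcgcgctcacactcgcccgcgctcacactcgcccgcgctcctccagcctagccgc
Gabrb2: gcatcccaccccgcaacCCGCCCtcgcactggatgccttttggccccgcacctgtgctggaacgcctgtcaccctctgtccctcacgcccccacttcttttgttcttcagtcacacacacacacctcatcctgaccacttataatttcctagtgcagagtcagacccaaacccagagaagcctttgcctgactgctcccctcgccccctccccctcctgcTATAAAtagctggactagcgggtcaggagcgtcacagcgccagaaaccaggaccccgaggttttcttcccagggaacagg
The *Gabrb1* window had 66% G and C (percentile 83.8) and neither motif. The *Gabrb2* window had 59% G and C (percentile 68.1), a GC box 233 bases before the start and the letters TATAAA 30 bases before it. Of 10 windows listed for 6 of the 7 subunits, 2 held a GC box and 3 a TATA box. Of these 3, 2 were the overlapping *Gabra3* windows, which hold the same match. *Gabrd* had no entry.

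*Gabrg1* encodes the γ1 subunit and lies on the reverse strand of chromosome 5 (mm9, chr5:71142286-71233856, 9 exons, 4771 bp of exon sequence), 118 kb from *Gabra2*, which in turn is 604 kb from *Gabrb1*. The library with the highest level was a different one for each of these 3 neighbours. NG/JG library 4 had 924 reads of *Gabrg1* (95.5 CPM), and the other NG/JG libraries had 0.139, 7.97 and 0 CPM. That library had 1 read of *Gabra2* and none of *Gabrb1*, and its peptidergic nociceptor sum of 3.72 CPM was the lowest of all libraries. TG had 0.127, 4.92, 1.89 and 13.2 CPM of *Gabrg1*, L3-L5 DRG 0.681, 0.397, 0.0824 and 8.24 CPM, and T10-L1 DRG 1.07, 5.14, 0 and 0 CPM. All 4 ranges overlapped. The means were 25.9 CPM in NG/JG, 5.03 in TG, 2.35 at L3-L5 and 1.55 at T10-L1, and with the highest library of each left out they were 2.70, 2.31, 0.387 and 0.357 CPM.

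None of the *Gabrg1* differences tested passed. The log2 fold change was 2.17 ± 1.80 (SE) for TG over T10-L1 DRG (adjusted p = 0.543), 1.57 ± 1.63 for TG over L3-L5 DRG (0.676) and -2.31 ± 2.13 for TG over NG/JG (0.838). The last was 1.18 without NG/JG library 4. Across the 4 ganglia the adjusted p was 0.525.

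*Gabra5* and *Gabrd*, which encode the α5 and δ subunits typical of receptors outside synapses, were too low for the filter on low counts in every comparison. Tested without the filter, neither was called, with adjusted p from 0.364 to 0.805 for *Gabra5* and from 0.372 to 0.763 for *Gabrd* in edgeR's quasi-likelihood test. *Gabra5* (mm9, chr7:64663060-64765379, reverse strand, 10 exons, 2653 bp) shares 4.45% of its exon sequence with *Gm9962*, where reads are ambiguous. It had 125 reads in NG/JG library 3 (17.3 CPM) and 24 in TG library 4 (4.21 CPM), and no other library exceeded 7 reads. NG/JG library 3 held 94.9% of the NG/JG total in CPM. In L3-L5 DRG there was 1 read over 4 libraries. Pooled over libraries, *Gabra5* was 151-fold higher in NG/JG than in L3-L5 DRG, with a counting interval of 26.6 to 5991 that takes no account of the spread between libraries. The fit without the filter gave a log2 difference of 6.42 ± 2.91 (SE, adjusted p = 0.503) for this pair.

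*Gabrd* (mm9, chr4:154759089-154772221, reverse strand, 8 exons, 2875 bp) had no read in any TG or NG/JG library, which allows up to 0.381 to 0.590 CPM in TG and 0.310 to 0.417 CPM in NG/JG. It had 21 reads (4.43 CPM) in L3-L5 DRG library 4 and 2 reads in library 1 of the same group. In T10-L1 DRG, library 1 had 4 reads and the others none. The L3-L5 DRG mean of 1.16 CPM was at least 2.30-fold higher than TG and at least 3.12-fold higher than NG/JG, taking 3 counts per library in the lower group. Library 4, the source of 95.8% of that mean, was the one with the highest share of reads outside genes, and without it the L3-L5 DRG mean was 0.0648 CPM, under the floor.

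Counted by comparison, the quasi-likelihood test at an adjusted p under 0.05 called 0 of the 4 subunits tested for L3-L5 over T10-L1 DRG, where it called 0% of all genes. At an unadjusted p under 0.05, *Gabrb1* and *Gabrb2* were among 6.07% of genes. These 2 had at most 2 and 5 reads in any T10-L1 DRG library, so they passed the filter on low counts only through L3-L5 DRG, where they were high. DESeq2's Wald test called both (adjusted p = 0.0025 and 0.00479, 0.305% of genes), and edgeR's likelihood-ratio test only *Gabrb1* (adjusted p = 0.00577, 0.133% of genes).

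For NG/JG over T10-L1 DRG the main test called 0 of 2 subunits tested, beside 0.0322% of genes. *Gabra2* and *Gabra3* had an unadjusted p under 0.05, as did 5.91% of genes, and both were called by DESeq2 (adjusted p = 2.22e-06 and 6.38e-05, 3.31% of genes) and by the likelihood-ratio test (2.69% of genes). Both had at most 3 reads in any NG/JG library, so they passed the filter only through T10-L1 DRG, where they were high. The filter removed the other subunits from this pair. Of those, *Gabra5*, *Gabrb1*, *Gabrb2* and *Gabrg1* had higher means in NG/JG, and *Gabrd* a lower one. For NG/JG over L3-L5 DRG it called 0 of 3, beside 0% of genes. There *Gabra2*, which passed the filter only through L3-L5 DRG, was below 0.05 unadjusted (6.04% of genes). It was called by DESeq2 (adjusted p = 4.77e-07, 2.84% of genes) and by the likelihood-ratio test (2.39% of genes). With all 16 libraries in one quasi-likelihood fit it was called as well (adjusted p = 0.0405, 0.583% of genes).

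For TG over T10-L1 DRG, the pair with the most calls, the main test called 0 of 3 subunits and 5.87% of genes. *Gabra3* was below 0.05 unadjusted (21.6% of genes) and was called by DESeq2 (adjusted p = 0.00177, 16.5% of genes) and by the likelihood-ratio test (11.3% of genes). For TG over L3-L5 DRG it called 0 of 5 subunits and 0% of genes. *Gabra3* and *Gabrb1* were below 0.05 unadjusted (18.2% of genes). DESeq2 called *Gabra3* (adjusted p = 0.0225, 12.7% of genes) and gave no adjusted p for *Gabrb1* and *Gabrg1*, and the likelihood-ratio test called *Gabrb1* (adjusted p = 0.0259, 6.65% of genes).

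For TG over NG/JG the main test called 0 of 2 subunits and 0.051% of genes, and neither subunit was below 0.05 unadjusted (10% of genes). DESeq2 did not call *Gabrb2* and gave no p-value for *Gabrg1* (4.13% of genes called). The likelihood-ratio test called neither subunit (2.1% of genes). Among the 4 ganglia together, *Gabra2*, *Gabra3* and *Gabrb1* were below 0.05 unadjusted (17.5% of genes). *Gabra2* and *Gabra3* were called by DESeq2's likelihood-ratio test (12.1% of genes) and by that of edgeR (10.7% of genes). The 6 pairs share libraries, so their values for a subunit are not independent of each other.

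**Figure D4:**
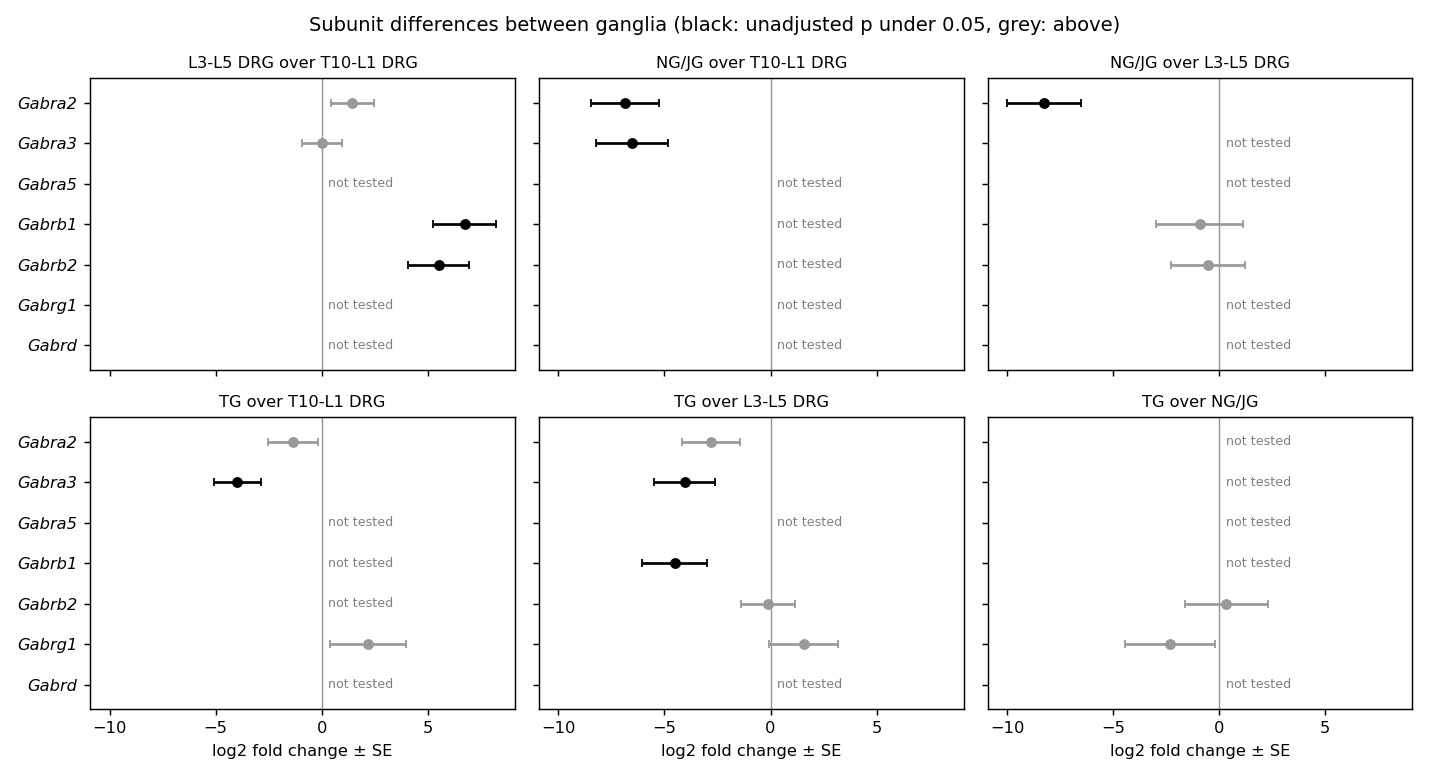
Log2 fold changes of the 7 subunits in the 6 pairs of ganglia, with SE derived from the F statistic, from edgeR's quasi-likelihood fit (n = 4 libraries per ganglion, black for an unadjusted p under 0.05, grey above, text where the filter on low counts removed the gene). *Gabrb1* and *Gabrb2* lie at 6.73 and 5.51 for L3-L5 over T10-L1 DRG, and *Gabra2* and *Gabra3* lie below 0 in NG/JG over T10-L1 DRG.

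The rest of the GABA system was followed through 47 other genes in a list fixed by role, 32 to 34 of which were tested in each pair. The main test called 2 of them, both of them higher in TG than in T10-L1 DRG, where 5.87% of all genes were called, and none in the other 5 pairs. They were *Gabarap*, which binds receptors and moves them to the membrane (395 ± 73.7 against 214 ± 23.1 RPKM, log2 fold change 1.26 ± 0.29 SE, adjusted p = 0.0382), and *Slc6a13*, a GABA transporter mainly of non-neuronal cells (16.2 ± 13.9 against 2.55 ± 1.44 RPKM, 3.05 ± 0.76 SE, adjusted p = 0.0448). In the other pairs, 1 to 6 of the list had an unadjusted p under 0.05 with edgeR, and DESeq2 called 0, 1, 0, 5 and 1 of them in L3-L5 over T10-L1 DRG, NG/JG over T10-L1 DRG, NG/JG over L3-L5 DRG, TG over L3-L5 DRG and TG over NG/JG, beside 0.305%, 3.31%, 2.84%, 12.7% and 4.13% of all genes. In TG over T10-L1 DRG DESeq2 called 5, of which 4 were higher and 1 lower in TG, beside 16.5% of all genes. Among the 4 ganglia together, 3 of 34 were called, beside 3.01% of all genes. They were *Gabarap*, *Slc6a13* and *Dbi*, which encodes a peptide that binds the benzodiazepine site (adjusted p = 0.0289, 0.0237 and 0.0248). Left out 1 at a time, 7 of 8 libraries ended both calls in TG over T10-L1 DRG, TG library 1 being the exception, and the adjusted p ranged from 0.00102 to 0.131 for *Gabarap* and from 0.00952 to 0.196 for *Slc6a13*. Among the 4 ganglia, the call of *Gabarap* was lost without 9 of the 16 libraries, that of *Dbi* without 4 and that of *Slc6a13* without 3, with TG libraries 2, 3 and 4 among them for all 3 genes. The median log2 fold change over the list was -0.12 in TG over T10-L1 DRG and lay between -0.46 and 0.13 in the other pairs, against -0.03 and between -0.05 and 0.03 over all genes tested. The satellite glia sum was 33746 to 64533 CPM in TG and 21528 to 31654 CPM in T10-L1 DRG, and 3 fibroblast markers summed to 4071 to 6698 and 2027 to 8824 CPM. The part of these cells in the 2 calls was not tested.

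Levels within this list put the 7 subunits in scale. The 12 other GABA-A subunit genes summed to 22.1 RPKM at L3-L5, 12.9 at T10-L1, 12.6 in NG/JG and 8.18 in TG, and 4 of them exceeded 3 reads in at least 8 libraries. Of the GABA-B receptor genes, *Gabbr1* had the higher mean, 7.92 RPKM over the 16 libraries, with 11.7 ± 7.40 RPKM in L3-L5 DRG and 5.04 ± 2.55 in TG. The 3 genes of GABA synthesis and vesicle loading were near the floor throughout, and the highest of them, *Gad1*, exceeded 3 reads in 3 of 16 libraries and the lowest, *Slc32a1*, in 1. For uptake and breakdown the highest over the 16 libraries was *Abat*, GABA transaminase, at 15.1 RPKM, although it did not lead in TG or NG/JG. For the chloride transporters, some of which set the gradient that GABA-A channels use, the highest was *Slc12a4*, at 30.8 RPKM. Its part in that gradient was not tested. *Dbi* (1779 RPKM) led the modulators. *Gabarap* (255 RPKM) led the anchoring group over the 16 libraries and in TG and T10-L1 DRG, while another gene of that group had the higher mean in L3-L5 DRG and NG/JG.

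The genes whose log2(CPM + 1) followed each subunit most closely over the 16 libraries, among 12721 genes with at least 1 CPM in at least 8 libraries, were taken as a description. For *Gabra2* they were *Rbm11* and *Ccdc68* (Pearson r = 0.951 and 0.944), and for *Gabra3* *Xrcc2* and *Apcdd1* (0.887 and 0.880). For *Gabrb1* they were *Igsf9* and *Asah2* (0.844 and 0.842), and for *Gabrb2* *Pla2g4b* and *Scn1a*, a sodium channel gene (0.805 and 0.786). *Gabrg1* was followed by *B230118H07Rik* and *Cd59a* (0.854 and 0.795), *Gabra5* by *Nkain1* and *Gstp2* (0.810 and 0.766) and *Gabrd* by *Scarf1* and *Fzd6* (0.729 and 0.711). The points are libraries of 4 ganglia and share their group and depth, and for *Gabra5*, *Gabrb1*, *Gabrg1* and *Gabrd* the values rest on few libraries with more than 3 reads, 5, 6, 10 and 2 of 16.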

How the data were processed

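RNA of TdTomato-positive neurons of the 4 kinds of ganglion, 4 libraries each, was made into cDNA with oligo dT by the SMART-seq2 protocol and sequenced as short single reads. The authors demultiplexed the reads with CASAVA (bcl2fastq in the submitters' processing notes), mapped them to mm9 by TopHat2 with its defaults and obtained gene counts by symbol from HTSeq. The deposited values are raw counts, with no normalization. Versions, annotation and strand setting are not given in the sources used here, so reads of a gene and of an antisense partner cannot be told apart. The counter's totals of uncounted reads were left out of library sizes. Positions and exon lengths come from GENCODE vM1 on NCBIM37, the assembly of mm9, and start regions from RefSeq on GRCm38.p6, matched by symbol for 6 of the 7 subunits.

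Libraries held 4735624 to 13333318 reads on genes. Each pair of ganglia was fitted on its 8 libraries, and all 4 ganglia on 16, with edgeR 4.0.16 (TMM, filterByExpr, quasi-likelihood test, ganglion as the only term) in R 4.3.3, over all genes passing the filter, with Benjamini-Hochberg adjustment. DESeq2 1.42.0 and edgeR's likelihood-ratio test on the same genes, RLE factors, no filter, all 16 libraries in one fit for the pairs, the replicate number as a block and each library left out were alternatives. Scripts were tested on simulated data. Python 3.11.15 was used for tables and figures. No pair of libraries within a ganglion agreed within sampling noise (chi-square per gene at least 29.9). The 7 subunits and the lists were chosen with earlier results of these data known. The text names all 7 subunits. From the list of 47 other genes it names, by role, those called in any comparison and the one of highest mean RPKM, and the lowest where all are near 0, and for each subunit the 2 genes of highest correlation. Some genes are not reported here.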

Additional observations from a re-analysis of the deposited data

Results flagged for a closer look

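In 26 groups of 4 libraries, 1 for each subunit and ganglion with any read, the highest or lowest library was compared with the rest. In 9 of them 1 library stood apart, in that its gap to the nearest other library took up more of the group's range than Dixon's 95% limit for 4 values, where chance gives about 1 group in 20 for normally distributed values. Low counts are skewed, and a lone library with reads among libraries at 0 passes this limit by construction, so the number of such groups is a description and not a test. All 9 were the highest of their group. *Gabrg1* in NG/JG library 4 had 95.5 CPM, against 0 to 7.97 CPM in the other 3. *Gabra5* in NG/JG library 3 had 17.3 CPM, against at most 0.797 CPM, and *Gabrb1* in NG/JG library 1 had 12.7 CPM, against 0. These 3 values lie in different libraries of 1 ganglion. *Gabrg1* in L3-L5 DRG library 4 had 8.24 CPM, against at most 0.681 CPM, and *Gabrd* there had 4.43 CPM, against at most 0.195 CPM. *Gabra3* in TG library 1 had 2.16 CPM, against at most 0.344 CPM. The other 3 were small counts: *Gabra5* in L3-L5 DRG library 4 with 1 read (0.211 CPM), *Gabrb1* in T10-L1 DRG library 2 with 2 reads (0.19 CPM) and *Gabrd* in T10-L1 DRG library 1 with 4 reads (0.611 CPM).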

How the results depend on the processing

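The count of subunits past an adjusted p of 0.05 depended on the test. DESeq2 called 2, 2, 1, 1, 1 and 0 of them in L3-L5 over T10-L1 DRG, NG/JG over T10-L1, NG/JG over L3-L5, TG over T10-L1, TG over L3-L5 and TG over NG/JG, edgeR's likelihood-ratio test called 1, 2, 1, 1, 1 and 0, and the main test called 0 in each. Both called 2 among the 4 ganglia together, against 1. The fit of all 16 libraries called 1 for NG/JG over L3-L5 and 0 in the other pairs. RLE factors and no filter on low counts changed none of these 7 counts. Leaving out 1 library gave 0 to 2 calls for TG over T10-L1, 0 to 1 for TG over L3-L5 and 0 to 2 among the 4 ganglia, with each highest count reached without TG library 1, and 0 in the other 4 pairs. The cause was not tested.

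The replicate number as a block left 0 calls among the 4 ganglia (adjusted p of *Gabra2* 0.164, of *Gabra3* 0.126) and 0 in every pair. Of 24 correlations between the deviations of same-numbered libraries from their group means, from -0.12 to 0.20, 19 were positive and 6 exceeded 0.1. Pairing was taken as shown only with every correlation over 0.1, a strict rule, so the numbers were not used to pair the libraries in the main test. Libraries of different numbers were not compared, so the correlations do not decide whether the libraries are paired. Whether same-numbered libraries share animals is not given in the sources used here.

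Log2 fold changes changed sign where they were small or came from 1 library. *Gabra3* for L3-L5 over T10-L1 turned from 0.01 to -0.0031 with DESeq2, -0.0039 with RLE factors, -0.014 without the filter and -0.34 with the replicate block, and ranged from -0.73 to 0.41 with 1 library left out. *Gabrg1* for TG over NG/JG turned to 0.071 with the block and ranged from -3.38 to 1.18. With 1 library left out, *Gabra2* for L3-L5 over T10-L1 ranged from -0.10 to 1.82, and *Gabrb2* from -1.73 to 0.22 for NG/JG over L3-L5, -1.33 to 0.37 for TG over L3-L5 and -0.87 to 1.41 for TG over NG/JG. The other 13 of 19 fitted differences kept their sign in all alternatives. CPM over all reads, uncounted ones included, lowered 3 of 28 means by more than 1 SD, and no other alternative did.

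The number of genes called also moved: among the 4 ganglia 429 in the main test, 1667 with DESeq2, 1525 with the likelihood-ratio test, 184 with the block, and 33 without TG library 2 to 1035 without TG library 1. For TG over T10-L1 it was 758 in the main test, 1947, 1462, 427 without the filter, 238 in the fit of all libraries, 0 with the block, and 0 to 3583 with 1 library left out. For TG over L3-L5 it was 0 in the main test, 1453, 858, 39 without the filter, 206 in the fit of all libraries, 0 with the block and 0 to 2038. For TG over NG/JG it was 6, 460, 247, 56 without the filter, 484 in the fit of all libraries, 1 with the block and 1 to 325. For NG/JG over T10-L1 it was 4, 388, 334, 9, 54, 0 with the block and 1 to 5, for NG/JG over L3-L5 0, 334, 293, 2, 83, 0 and 0 to 2, in the same order, and for L3-L5 over T10-L1 40 with DESeq2, 18 with the likelihood-ratio test and 0 otherwise. Depth limits *Gabra5* and *Gabrd*, which had 174 and 27 reads over all 16 libraries.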
